A study of Mus musculus with 6 samples.

Results

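Caveolae are small flask-shaped pits of the plasma membrane. Caveolins insert into the inner face of the membrane and oligomerise there, cavins form a coat around them, and the ATPase EHD2 sits at the neck and holds the pit at the surface. Adipocytes and endothelial cells carry caveolae at very high density, and loss of caveolin-1 or cavin-1 is known to cause lipodystrophy in mice and humans. The 6 genes described here are the caveolins Cav1 and Cav2, the cavins Cavin1, Cavin2 and Cavin3, and Ehd2. They were taken by gene symbol from 19938 genes that could be named on the array, and each was read by a single probeset.

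The study concerned Hmox1, which encodes the heme-degrading enzyme HO-1, and its role in adipose precursors (APs) when mice eat a high-fat diet (HFD). The 3 Hmox1f/f PdgfraCre arrays came from mice with loxP sites around exon 2 of Hmox1 and with Cre under the promoter of Pdgfra, a receptor gene of APs. The 3 Hmox1f/f arrays came from mice with the same floxed alleles and no Cre, so that carrying Cre and losing Hmox1 cannot be told apart. All mice were on the C57BL/6J background, started HFD at an age of 6 weeks and stayed on it for 8 weeks, and each array held RNA pooled from 2 mice. In the labels the material is both bead-purified APs and visceral fat (viWAT), and the bead method of the study removes CD45+ and CD31+ cells before selecting for Sca-1.

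Hmox1 itself had log2 intensities of 11.25, 11.36 and 10.74 on the Hmox1f/f PdgfraCre arrays, against 11.90, 11.63 and 12.32 on the Hmox1f/f arrays. The groups did not overlap, and the difference of -0.83 ± 0.23 (SE) had an adjusted p of 0.266 in limma. The place of its probes relative to exon 2 was not analysed here. Markers of adipocytes, of macrophages and of the CD31+ cells that the bead method removes were present on every array. The CD31 gene Pecam1 read 10.54, 10.33 and 10.56 with Cre, against 10.33, 10.19 and 9.97 without. Adipoq, the adipocyte hormone adiponectin, read 12.99, 12.94 and 13.10 with Cre, against 12.78, 12.90 and 12.74 without. The macrophage marker Cd68 read 12.70, 12.93 and 12.36 with Cre, against 12.98, 12.97 and 13.09 without. Pools also differed in epididymal RNA: Lcn5 was at 12.21 on Hmox1f/f PdgfraCre array 1 and between 5.39 and 5.86 on all others, while Gpx5 was highest, at 10.33, on Hmox1f/f array 6. Pecam1, Adipoq, Cd68, Lcn5 and Gpx5 were picked after their values were seen.

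Upstream sequence was available in the RefSeq promoter table (GRCm38.p6) for 5 of the 6 genes, all but Cavin3. The windows of Cav1, Cav2 and Cavin2 are printed because these genes followed each other most closely across the arrays, and that of Cavin1 because it did so less. Each runs 5′ to 3′ over the 250 bases before a transcription start, and capitals mark matches on either strand to a GC box (GGGCGG), to the CCAAT box or to a TATA box (with the letters TATAAA). None of these matches overlapped another.
Cav1, chr6:17306085-17306334, plus strand: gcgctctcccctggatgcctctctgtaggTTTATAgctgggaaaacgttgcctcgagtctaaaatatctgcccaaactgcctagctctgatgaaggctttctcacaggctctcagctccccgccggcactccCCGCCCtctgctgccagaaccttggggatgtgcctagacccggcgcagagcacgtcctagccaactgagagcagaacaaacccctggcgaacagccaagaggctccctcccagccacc
Cav2, chr6:17280935-17281184, plus strand: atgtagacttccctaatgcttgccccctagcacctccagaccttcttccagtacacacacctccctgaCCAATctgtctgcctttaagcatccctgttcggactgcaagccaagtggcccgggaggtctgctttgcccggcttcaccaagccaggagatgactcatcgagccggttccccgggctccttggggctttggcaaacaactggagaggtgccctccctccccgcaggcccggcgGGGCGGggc
Cavin2, chr1:51288876-51289125, plus strand: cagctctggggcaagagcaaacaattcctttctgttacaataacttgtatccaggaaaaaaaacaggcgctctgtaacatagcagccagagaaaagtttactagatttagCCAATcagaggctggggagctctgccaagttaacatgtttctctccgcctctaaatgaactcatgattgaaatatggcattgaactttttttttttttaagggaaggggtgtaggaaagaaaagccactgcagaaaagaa
Cavin1, chr11:100970616-100970865, minus strand: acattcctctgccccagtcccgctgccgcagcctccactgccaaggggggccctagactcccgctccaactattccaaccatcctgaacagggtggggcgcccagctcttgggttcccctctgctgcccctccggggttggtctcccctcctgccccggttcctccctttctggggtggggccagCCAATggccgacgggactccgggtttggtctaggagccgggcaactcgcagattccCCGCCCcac
Cav2 and Cav1 are next to each other on chromosome 6. Their windows had a GC content of 62% and 59.6%, against 67.6% for Cavin1, 40.4% for Cavin2 and a median of 52.4% over 32851 windows. A GC box was found in the printed windows of Cav1, Cav2 and Cavin1 but not of Cavin2, and in 32.7% of all windows. In Cav2 and Cavin1 it lay 9 to 4 bases before the start, and in Cav1 118 to 113 bases before it. A CCAAT box was found in Cav2, Cavin1 and Cavin2, and in 33.8% of all windows. The TATA box letters occurred only in the window of Cav1 among these 4, from 221 to 216 bases before the start, and in 12.4% of all windows. A further RefSeq start of Cav1, not printed, held none of the 3 motifs. A match of letters is a description and shows no bound factor.

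All 6 caveola genes averaged higher in Hmox1f/f PdgfraCre than in Hmox1f/f, by 0.06 to 0.29 on the log2 scale (median 0.19), and none passed the test. Of the 11024 genes bright enough to be tested, 42.6% averaged higher with Cre and the median difference was -0.03. No gene of the 11024 (0%) had an adjusted p under 0.05, while 15.8% had an unadjusted p under 0.05, and 3.03% did so with a higher mean in Hmox1f/f PdgfraCre. Of the 6 caveola genes, 0 had an unadjusted p under 0.05. In the plot of each caveola gene by array, Hmox1f/f PdgfraCre array 3 is at or near the top of most panels and Hmox1f/f array 6 at the bottom of all of them.

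**Figure D1:**
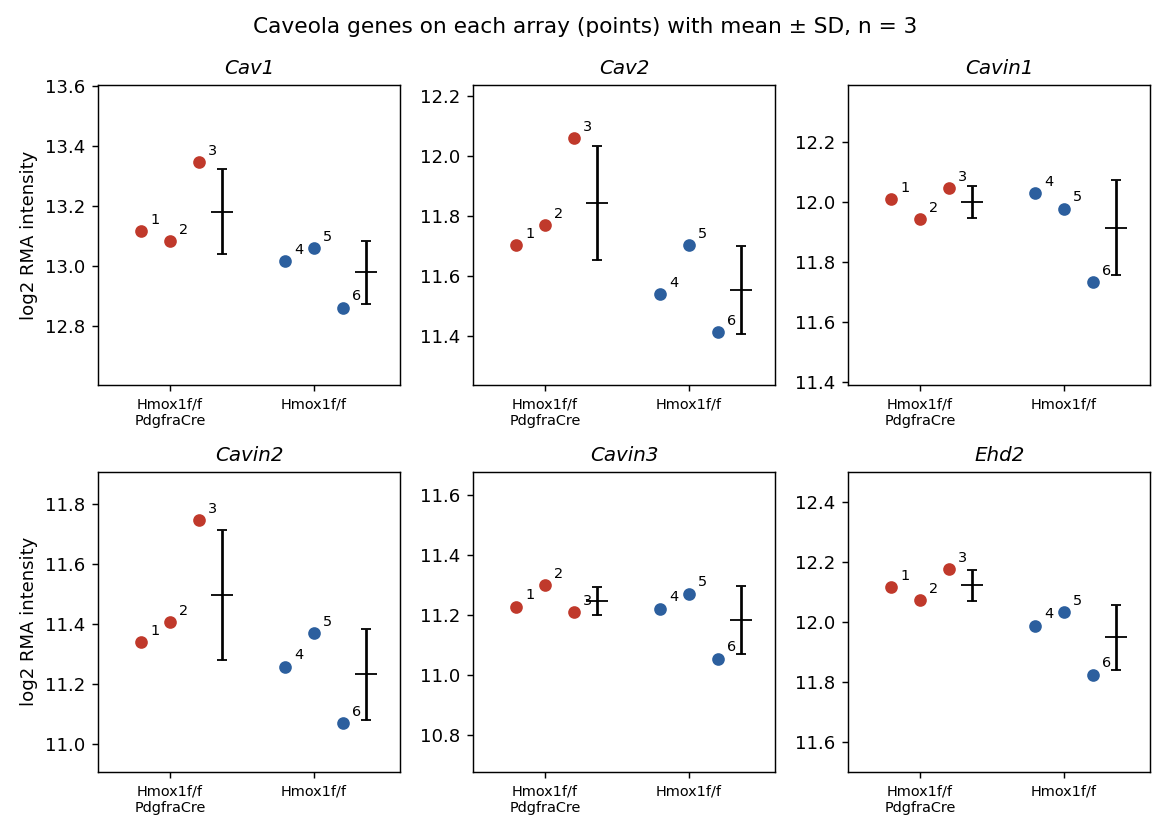
Log2 RMA intensity of the 6 caveola genes on each array, with the array number beside each point and the mean ± SD of each genotype (n = 3) at its right. Each vertical axis spans the same height in log2 units, and Hmox1f/f array 6 is the lowest point of every panel.

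Cav1 encodes caveolin-1, the caveolin without which no caveolae form outside muscle. It read 13.12, 13.08 and 13.35 in Hmox1f/f PdgfraCre, against 13.02, 13.06 and 12.86 in Hmox1f/f. The groups did not overlap, although Hmox1f/f PdgfraCre array 2 and Hmox1f/f array 5 were close. The difference was 0.20 ± 0.10 (SE), a 1.15-fold higher level, with a 95% interval of -0.04 to 0.45 and an adjusted p of 0.369 in limma.

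Cav2 encodes caveolin-2, which joins caveolin-1 in mixed oligomers and depends on it to reach the surface. It read 11.70, 11.77 and 12.06 in Hmox1f/f PdgfraCre, against 11.54, 11.70 and 11.41 in Hmox1f/f. The groups only just overlapped, at Hmox1f/f PdgfraCre array 1 and Hmox1f/f array 5. Cav2 had the widest difference of the 6 genes, 0.29 ± 0.13 (SE) or 1.22-fold, with a 95% interval of -0.01 to 0.60 and an adjusted p of 0.325 in limma. The muscle caveolin, Cav3, was too dim to test, with means of 6.35 in Hmox1f/f PdgfraCre and 6.23 in Hmox1f/f.

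Among the cavins, Cavin2, which helps to bend the membrane, stood nearest to the caveolins. It read 11.34, 11.40 and 11.74 in Hmox1f/f PdgfraCre, against 11.26, 11.37 and 11.07 in Hmox1f/f. The groups overlapped, and the difference of 0.26 ± 0.14 (SE) or 1.2-fold had a 95% interval of -0.06 to 0.59 and an adjusted p of 0.381 in limma.

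Cavin1 encodes the cavin that the whole coat requires. It read 12.01, 11.94 and 12.05 in Hmox1f/f PdgfraCre, against 12.03, 11.98 and 11.73 in Hmox1f/f. Only Hmox1f/f array 6 was clearly apart, and the highest Hmox1f/f array was above 2 of the 3 Hmox1f/f PdgfraCre arrays. The difference was 0.09 ± 0.10 (SE), with a 95% interval of -0.15 to 0.32 and an adjusted p of 0.668. Without Hmox1f/f array 6 it was -0.01.

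Cavin3, a cavin that binds protein kinase C delta, read 11.23, 11.30 and 11.21 in Hmox1f/f PdgfraCre, against 11.22, 11.27 and 11.06 in Hmox1f/f. The difference was the narrowest of the 6 genes, 0.06 ± 0.08 (SE), with a 95% interval of -0.14 to 0.27 and an adjusted p of 0.706. Without Hmox1f/f array 6 it was 0. The muscle cavin, Cavin4, was too dim to test, with means of 5.78 in Hmox1f/f PdgfraCre and 5.59 in Hmox1f/f.

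Ehd2 read 12.12, 12.08 and 12.18 in Hmox1f/f PdgfraCre, against 11.99, 12.03 and 11.83 in Hmox1f/f. As for Cav1, the groups did not overlap, which held for 2 of the 6 caveola genes and, in the same direction, for 5.82% of all genes tested (27% in either direction). The difference was 0.17 ± 0.08 (SE) or 1.13-fold, with a 95% interval of -0.03 to 0.38 and an adjusted p of 0.35 in limma.

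Leaving out a single array narrowed or widened several of these differences, depending on the array. Without Hmox1f/f PdgfraCre array 3 the difference was 0.12 for Cav1, 0.18 for Cav2, 0.14 for Cavin2 and 0.15 for Ehd2. Without Hmox1f/f array 6 it was 0.14 for Cav1, 0.22 for Cav2, 0.18 for Cavin2 and 0.11 for Ehd2. It widened without Hmox1f/f array 5, to 0.24 for Cav1, 0.37 for Cav2, 0.33 for Cavin2 and 0.22 for Ehd2. Without Hmox1f/f PdgfraCre array 1 the values were 0.24, 0.36, 0.34 and 0.18 in the same order. The scale also mattered: RMA leaves the array medians slightly unequal, and with each array centred on its own median Cav1, Cav2, Cavin2 and Ehd2 had an unadjusted p of 0.0311, 0.0216, 0.0394 and 0.0331, all with an adjusted p of at least 0.378. On that scale 734 of 1420 genes with an unadjusted p under 0.05 were higher in Hmox1f/f PdgfraCre (6.66% of those tested), against 334 of 1740 on the scale of the deposited values. In bulk RNA fewer cells of a type and less RNA per cell cannot be told apart.

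All 6 genes were lowest on Hmox1f/f array 6 but did not vary to the same degree. Over the 6 arrays the mean of their deviations, each gene taken from its own mean, was 0.03, 0.04 and 0.21 in Hmox1f/f PdgfraCre, against -0.05, 0.01 and -0.23 in Hmox1f/f. On Hmox1f/f PdgfraCre array 3, Cavin2 was 0.38, Cav2 0.36 and Cav1 0.27 above their own means, while Ehd2 was 0.14 and Cavin1 0.09 above. Cavin3 was at its mean on that array. On Hmox1f/f array 6 all 6 genes were below their means, with deviations of -0.16 for Cavin3 to -0.295 for Cavin2.

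**Figure D2:**
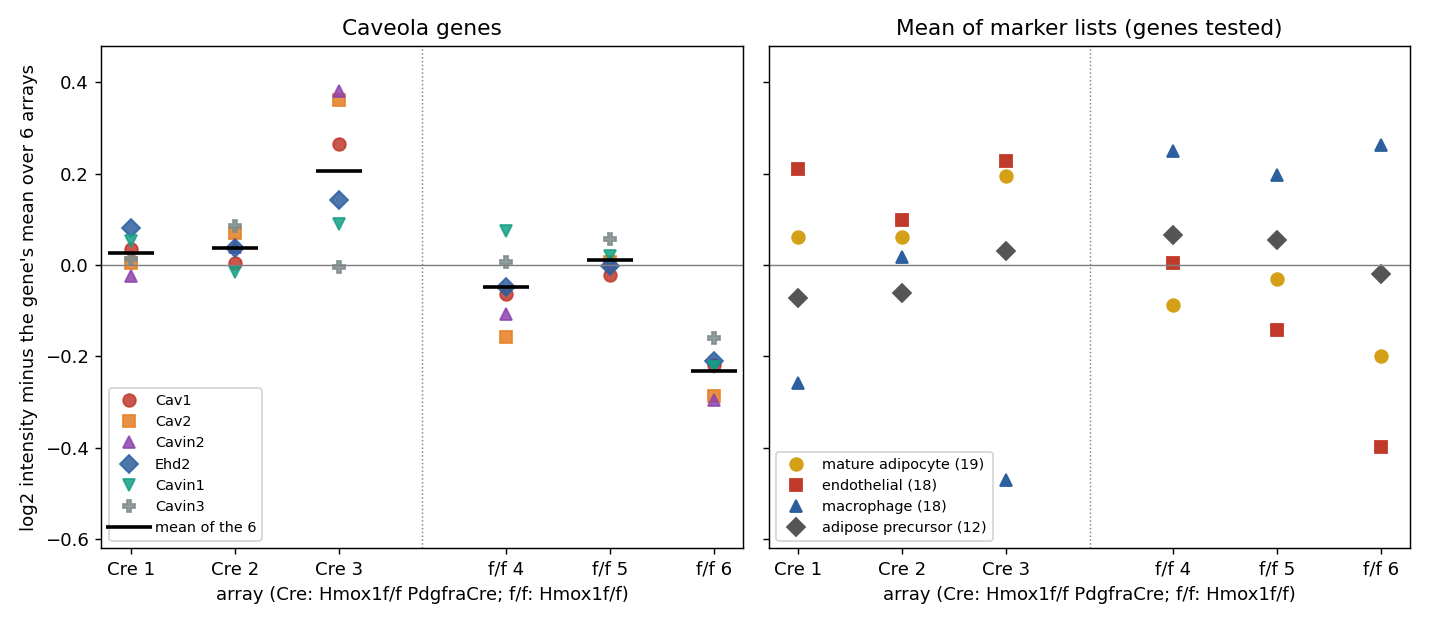
Left, deviation of each caveola gene from its own mean over the 6 arrays, in log2 units, with the Hmox1f/f PdgfraCre arrays (Cre 1 to 3) left of the Hmox1f/f arrays (f/f 4 to 6). The black dash at left is the mean of the 6 caveola genes. Right, the mean deviation of marker lists on the same arrays. The mean of the caveola genes, the adipocyte markers and the endothelial markers are all highest on Cre 3 and lowest on f/f 6.

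Pairwise correlations share the same 6 arrays and are given as a description. Pearson's r was 0.99 for Cav2 with Cavin2, 0.983 for Cav1 with Cavin2 and 0.974 for Cav1 with Cav2. With the mean of each genotype removed these values were 0.991, 0.973 and 0.947. Ehd2 followed Cav1 at 0.931, and Cavin1 followed Ehd2 at 0.847. The lowest of the 15 pairs was Cav1 with Cavin3, at 0.493. The median of the 15 pairs was 0.762, and that of all pairs of tested genes was 0.059.

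**Figure D3:**
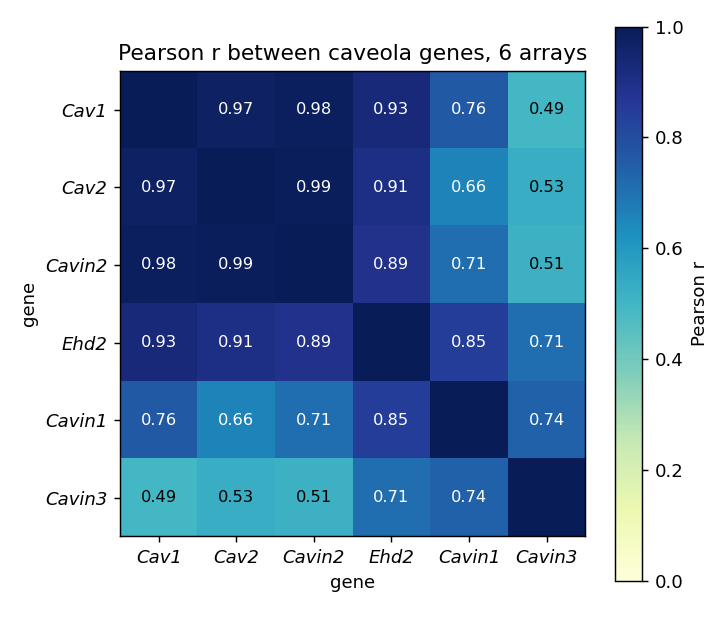
Pearson's r between the log2 intensities of each pair of caveola genes over the 6 arrays. The block of Cav1, Cav2 and Cavin2 lies between 0.974 and 0.99, and the pairs with Cavin3 lie between 0.493 and 0.739.

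Ehd2 has relatives, and other proteins bend, cut or scaffold the membrane around caveolae and lipid rafts. A list of 15 such genes had 11 bright enough to test, of which 2 averaged higher and 9 lower in Hmox1f/f PdgfraCre (median -0.10), with 0 called. By unadjusted p under 0.05, 1 was higher and 2 were lower, beside 3.03% and 12.8% of all genes tested. Ehd4, an EHD ATPase that acts at endosomes, read 10.66, 11.03 and 10.78 in Hmox1f/f PdgfraCre, against 11.29, 11.24 and 11.45 in Hmox1f/f. Every Hmox1f/f PdgfraCre array was thus below every Hmox1f/f array, opposite to Ehd2. Groups lay apart in that lower direction for 4 of the 11 tested genes of this list and for 2339 of all 11024 genes tested. The difference was -0.51 ± 0.12 (SE), with a 95% interval of -0.79 to -0.22, an unadjusted p of 0.00442 and an adjusted p of 0.266 in limma.

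The other EHD genes were mixed. Ehd3 read 10.83, 10.14 and 10.47 in Hmox1f/f PdgfraCre, against 10.09, 10.17 and 9.99 in Hmox1f/f, and the groups overlapped (0.39 ± 0.17 SE, adjusted p = 0.334). Its difference was 0.218 without Hmox1f/f PdgfraCre array 1 and 0.563 without Hmox1f/f PdgfraCre array 2. Ehd1, which recycles endosomal cargo, read 10.15, 10.16 and 10.15 against 10.27, 10.27 and 10.36, without overlap (-0.15 ± 0.07 SE, adjusted p = 0.337). The difference between Ehd2 and its relatives was not tested.

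The Src-family kinases, of which Src phosphorylates caveolin-1, were mixed as well. Yes1 read 8.67, 8.59 and 9.02 in Hmox1f/f PdgfraCre, against 8.32, 8.43 and 8.33 in Hmox1f/f (0.40 ± 0.12 SE, adjusted p = 0.266). Fyn read 8.72, 8.83 and 8.76 in Hmox1f/f PdgfraCre, against 9.01, 8.94 and 8.98 in Hmox1f/f (-0.20 ± 0.07 SE, adjusted p = 0.267). Neither kinase overlapped between genotypes, and they lay in opposite directions. Src had a difference of -0.06 with an adjusted p of 0.769.

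The remaining genes of this list differed little. They were Dnm2 (-0.10), the GTPase dynamin-2 that cuts membrane necks, Pacsin2 (-0.10), an F-BAR protein of caveolae, Flna (-0.15), which ties caveolin to actin, and the raft scaffolds Flot1 (-0.10) and Flot2 (-0.14). Their adjusted p ranged over 0.447 for Flna, 0.459 for Dnm2, 0.46 for Flot2, 0.513 for Pacsin2 and 0.546 for Flot1. Only Dnm2 among them had no overlap between genotypes.

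**Figure D4:**
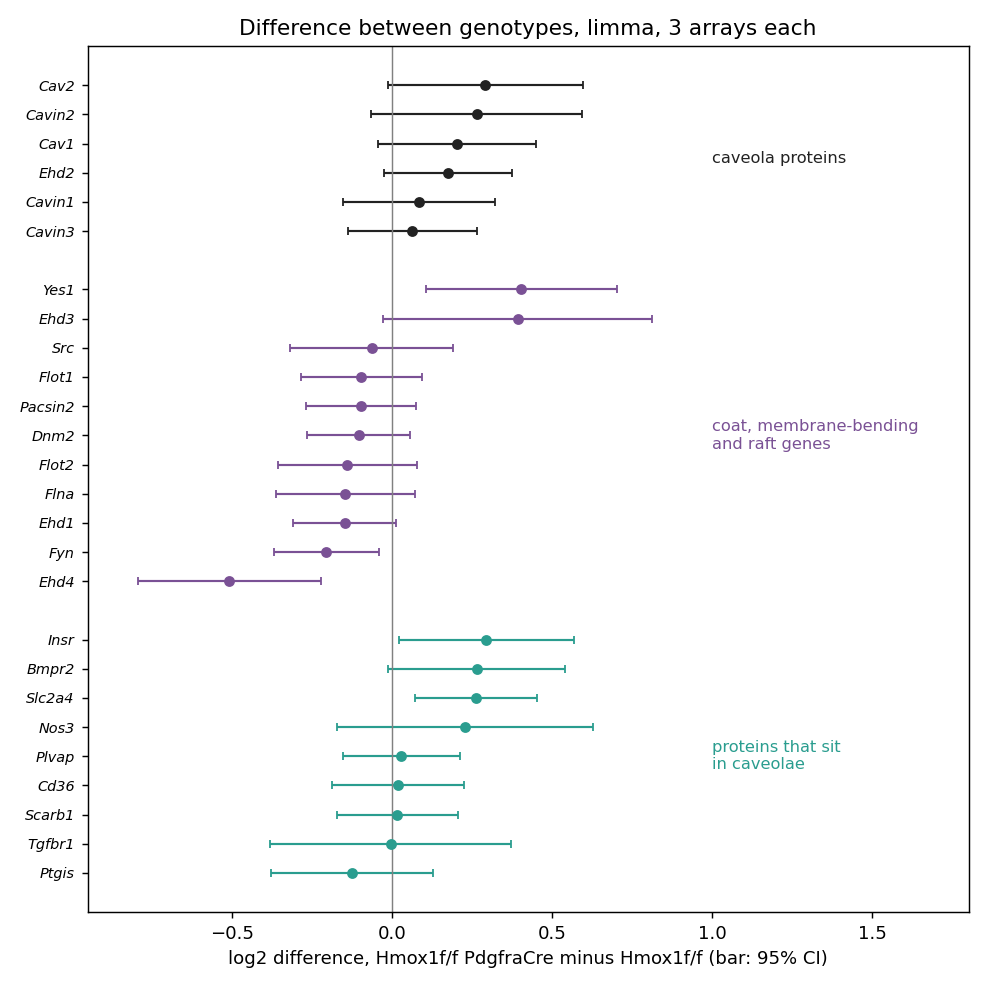
Log2 difference, Hmox1f/f PdgfraCre minus Hmox1f/f, with its 95% confidence interval from limma (3 arrays each) for the caveola proteins, the coat, membrane-bending and raft genes, and proteins that sit in caveolae. All 6 caveola proteins lie right of zero with intervals that cross it, and the intervals of Ehd4, Fyn, Yes1, Insr and Slc2a4 do not cross it.

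Receptors, transporters and enzymes known to sit in caveolae were counted as well. Of 11 listed genes 9 could be tested, 7 averaged higher and 2 lower in Hmox1f/f PdgfraCre, the median was 0.03 and 0 were called. The median moved with single arrays, to 0.018 without Hmox1f/f array 6 and 0.091 without Hmox1f/f array 4. An unadjusted p under 0.05 was reached by 2, both higher, beside 3.03% of all genes tested. Slc2a4, the insulin-regulated glucose transporter GLUT4, read 9.03, 8.89 and 8.97 in Hmox1f/f PdgfraCre, against 8.75, 8.74 and 8.61 in Hmox1f/f. The groups did not overlap (0.26 ± 0.08 SE, 95% interval 0.07 to 0.45, adjusted p = 0.266).

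Insr, the insulin receptor, read 10.64, 10.47 and 10.84 in Hmox1f/f PdgfraCre, against 10.35, 10.45 and 10.27 in Hmox1f/f (0.30 ± 0.11 SE, 95% interval 0.02 to 0.57, adjusted p = 0.293). Its groups did not overlap, although Hmox1f/f PdgfraCre array 2 and Hmox1f/f array 5 nearly touched. These values are of the brighter of the 2 Insr probesets. With the mean of both probesets the Insr difference was 0.33 ± 0.14 (SE), with an unadjusted p of 0.0546 in limma. Bmpr2, the type II receptor for bone morphogenetic proteins, had a difference of 0.27 ± 0.11 (SE) without overlap (adjusted p = 0.326). The fatty acid transporter Cd36 was nearly even, at 13.40, 13.49 and 13.57 in Hmox1f/f PdgfraCre, against 13.49, 13.55 and 13.36 in Hmox1f/f (0.02 ± 0.09 SE, adjusted p = 0.919).

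Endothelial members of the list did not stand together. Nos3, the endothelial nitric oxide synthase that caveolin-1 binds, had a difference of 0.23 ± 0.17 (SE, adjusted p = 0.505), which was 0.064 without Hmox1f/f PdgfraCre array 3 and 0.124 without Hmox1f/f array 6. Plvap, which forms the diaphragm of endothelial caveolae, had one of 0.03 ± 0.08 (SE, adjusted p = 0.856). The differences of the HDL receptor Scarb1 (0.02), the TGF-beta receptor Tgfbr1 (-0.00) were smaller than their SE, and that of the prostacyclin synthase Ptgis was -0.12 (adjusted p = 0.556). Bdkrb2 and Trpc1 were too dim to test.

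Markers of endothelial cells and of adipocytes, which carry caveolae at very high density, stood higher on the same side. All 18 endothelial markers averaged higher in Hmox1f/f PdgfraCre (median 0.35), beside 42.6% of all genes tested. An unadjusted p under 0.05 was reached by 12, beside 3.03% of all genes in that direction, and 0 were called. Their mean deviation per array lay between 0.10 and 0.23 in Hmox1f/f PdgfraCre, against -0.40 to 0.00 in Hmox1f/f. Cdh5, the cadherin of endothelial junctions, had the smallest p among them, at 11.34, 11.18 and 11.33 with Cre, against 10.95, 10.87 and 10.69 without (0.45 ± 0.10 SE, adjusted p = 0.266).

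All 19 tested adipocyte markers also averaged higher in Hmox1f/f PdgfraCre (median 0.17), beside the same 42.6%. An unadjusted p under 0.05 was reached by 6, beside 3.03%, and 0 were called. Their mean deviation lay between 0.06 and 0.20 in Hmox1f/f PdgfraCre, against -0.20 to -0.03 in Hmox1f/f. The lowest p among them belonged to Rbp4, the retinol-binding protein made by adipocytes, at 11.49, 11.50 and 11.64 with Cre, against 11.23, 11.24 and 11.01 without (0.38 ± 0.09 SE, adjusted p = 0.266).

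All 18 macrophage markers averaged lower in Hmox1f/f PdgfraCre (median -0.42), as did 6327 of the 11024 genes tested. An unadjusted p under 0.05 was reached by 12, beside 12.8% of all genes in that direction, and 0 were called. Their mean deviation lay between -0.47 and 0.02 in Hmox1f/f PdgfraCre, against 0.20 to 0.26 in Hmox1f/f. Of the 12 tested precursor markers, 5 averaged higher and 7 lower (median -0.05), and their mean deviation lay between -0.07 and 0.03 in Hmox1f/f PdgfraCre, against -0.02 to 0.07 in Hmox1f/f. Pdgfra, whose promoter drives Cre, had a difference of -0.17 ± 0.08 (SE, adjusted p = 0.355).

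Across the 6 arrays the mean of the caveola genes had an r of 0.97 with the mean of the adipocyte markers, 0.866 with the endothelial, -0.81 with the macrophage and 0.096 with the precursor markers. The members differed here too: r with the adipocyte markers was 0.97 for Ehd2, 0.966 for Cav2, 0.963 for Cav1 and 0.943 for Cavin2, against 0.725 for Cavin1 and 0.599 for Cavin3. These are descriptions over 6 arrays that also carry the difference in genotype. The part of the marker levels in the caveola values was not tested.

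The genes most like the mean of the 6 caveola genes were sought among the other 11018 tested genes by Pearson's r over the 6 arrays. They were Tmem45b (0.996), Pnn (0.994), Gys1 (0.994), Usp34 (0.994) and Tspan12 (0.993). Of the genes searched, 832 (7.55%) had an r above 0.9. Tmem45b, a membrane protein, read 12.20, 12.22 and 12.46 in Hmox1f/f PdgfraCre, against 12.06, 12.13 and 11.74 in Hmox1f/f. Gys1, the glycogen synthase of muscle and fat, read 9.60, 9.60 and 9.75 in Hmox1f/f PdgfraCre, against 9.49, 9.55 and 9.32 in Hmox1f/f. Both repeat the high Hmox1f/f PdgfraCre array 3 and the low Hmox1f/f array 6, which follows from how they were chosen. Neither passed the adjusted threshold in limma, at 0.318 for Tmem45b and 0.34 for Gys1.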

How the data were processed

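RNA from viWAT material of 3 Hmox1f/f PdgfraCre and 3 Hmox1f/f pools was hybridised to Affymetrix mouse gene arrays after labelling of 200 ng. The deposited intensity values are linear, rounded to whole numbers, and per the submitters' notes were made by the authors with RMA (robust multi-array average: background correction, quantile normalization and probe summary) in Affymetrix Expression Console 1.1. This shrinks differences of dim probesets and removes a shift that most genes share. Array medians were 106 to 115 and the number of arrays limits the precision. Pools are separate per the labels, which name no batch, and p-values measure the spread between these pools.

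Of 35556 probesets, 21789 had 1 symbol, 1621 several and 12146 none here, and 21698 matched RefSeq by Entrez number. For 999 genes with several probesets the highest mean over all arrays was kept. Log2 values were fitted on genotype by limma 3.58.1 in R 4.3.3 (two-sided, lmFit, then eBayes over all 19938 genes). Benjamini-Hochberg adjustment ran over the 11024 genes with log2 above 7 in at least 3 arrays. The fit was tested on simulated data, with noise drawn independently for each gene and array. The real arrays carried patterns shared by many genes, so these counts check the fit and do not give the power of these data. Of 50 genes shifted by 0.5 on the log2 scale 18 were recovered, and of 50 shifted by 2 all 50 were. There were 6 false calls among the genes left unshifted. All caveola differences were smaller than 0.5, the smallest shift simulated. Figures used matplotlib 3.10.9 in Python 3.11.15.

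The members, lists and tests were chosen with earlier results of these data known. Named genes were the members, Hmox1, Pdgfra, the tested genes of the 2 caveola lists, up to 4 genes of smallest p per marker list and the 5 most like the members. Cav3, Cavin4, Bdkrb2 and Trpc1 were named as untested, and Myh11 and Cnn1 for their spread. The alternatives were other filters, scalings, moderation, array weights, probeset means and leaving out arrays.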

Additional observations from a re-analysis of the deposited data

How the results depend on the processing

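No paired analysis was possible because the titles number the Hmox1f/f PdgfraCre arrays 1 to 3 and the Hmox1f/f arrays 4 to 6. No caveola gene was called under any of 16 alternatives. The number with an unadjusted p under 0.05 was 4 with each array centred, 2 after a further quantile normalization, 2 with trend and robust moderation, 1 with moderation over the tested genes only (an alternative chosen after seeing the data), 1 without Hmox1f/f PdgfraCre array 1, 1 without Hmox1f/f array 5, and 0 otherwise. Among all genes tested 0 were called under any setting, and those with an unadjusted p under 0.05 numbered 1740 at first, 945 without Hmox1f/f array 6, 1034 without Hmox1f/f PdgfraCre array 1 and 431 without both, but 2103 without Hmox1f/f PdgfraCre array 2 (614 of them higher) and 2415 with array weights. After a further quantile normalization 610 of 1620 were higher in Hmox1f/f PdgfraCre. The median difference of the caveola genes was 0.10 with array weights and 0.28 under the filter of the methods, which adds a minimum spread and keeps only Cav2 and Cavin2. Under that filter the coat, membrane-bending and raft list has 3 genes and a median of 0.39, and the proteins that sit in caveolae have 4 and a median of 0.25; fewer genes are tested there. The median of the proteins that sit in caveolae was also 0.115 with no filter, 0.08 after quantile normalization, 0.077 with centring and 0.018 to 0.091 with single arrays left out. The median of the coat list was -0.066 after quantile normalization, -0.057 with centring, -0.125 with array weights, and -0.135 to -0.095 with single arrays left out. Several genes near zero changed sign. With single arrays left out the difference ranged over -0.005 to 0.143 for Cavin1, 0 to 0.108 for Cavin3, -0.033 to 0.063 for Cd36, -0.004 to 0.072 for Plvap, -0.017 to 0.059 for Scarb1, -0.165 to 0.091 for Tgfbr1 and -0.143 to 0.004 for Src, and the low values of Cavin1, Cavin3 and Cd36 were those without Hmox1f/f array 6. Without both that array and Hmox1f/f PdgfraCre array 1 it was -0.01 for Cavin1 and -0.015 for Plvap. Tgfbr1 was 0.019 after quantile normalization and 0.043 with centring, and with array weights Src was 0.075 and Cd36 -0.071. The cause was not tested.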

Other observations

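Markers of other cells of the vessel wall and fat surface were also read. Of 11 tested mural markers, from pericytes and smooth muscle, 8 averaged higher and 3 lower in Hmox1f/f PdgfraCre (median 0.07, 0 called). Their mean deviation per array lay between -0.28 and 0.34 in Hmox1f/f PdgfraCre, against -0.59 to 0.37 in Hmox1f/f. Rgs5, a pericyte regulator of G protein signalling, read 10.28, 10.23 and 10.52 in Hmox1f/f PdgfraCre, against 9.99, 9.75 and 9.29 in Hmox1f/f (0.66 ± 0.19 SE, adjusted p = 0.266 in limma). Des of the same list lay the other way, at 8.61, 8.44 and 8.69 against 9.13, 8.97 and 8.71 (-0.36 ± 0.13 SE, adjusted p = 0.282 in limma). The smooth muscle genes Myh11 and Cnn1 spread most, with an SD of 1.07 and 1.71 in Hmox1f/f, and weigh heavily in the mural mean. That mean was highest on Hmox1f/f array 4 (0.37), where Rgs5 was below every Hmox1f/f PdgfraCre array. Over the 6 arrays Cavin1 had an r of 0.928 with the mural mean, while Cav2 had 0.519 and Cavin3 0.484. Of 9 mesothelial markers 2 averaged higher and 7 lower (median -0.12, 0 called). The single epididymal marker bright enough to test, Adam7, read 11.68, 5.43 and 8.93 in Hmox1f/f PdgfraCre, against 5.49, 5.52 and 7.85 in Hmox1f/f, and the mean of the caveola genes had an r of 0.182 with it. Gpx5 was bright on too few arrays to be tested and read 10.33 on Hmox1f/f array 6, where the caveola genes were lowest. The r with Adam7 thus does not cover the epididymal RNA of that array.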
